A study of Mus musculus with 2 samples.

Results

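Adventitial fibroblasts are the mesenchymal cells of the connective tissue sleeve around the larger vessels and airways of the lung. They are known for a collagen-rich matrix, for the secreted peptidase inhibitor Pi16 and for genes shared with fibroblast progenitors of other organs, and they neighbour the lymphatic vessels and immune cells of the same sleeve. Alveolar fibroblasts, marked by Npnt, Tcf21, Inmt and Col13a1, line the gas exchange surface instead.

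The cells came from lungs of BALB/c mice that carried 4T1 tumours, a mouse mammary carcinoma line, in the mammary fat pad. Lungs were taken at day 14 after tumour cells were placed. One group received IgG antibody and the other S100A4-11 antibody; the series title speaks of inhibiting S100A4, a small calcium-binding protein, and the site the antibody binds is not given in the sources used here. All mice carried the tumour, so no tumour-free lung is compared here. Each group had 1 library of 10x Genomics 5' single-cell RNA, and the number, age and sex of the mice behind a library are not given in the sources used here.

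Members were chosen by measured UMIs of marker genes (unique molecular identifiers, counts of captured RNA molecules). A barcode had at least 200 genes and at most 15% mitochondrial UMIs. It held at least 2 UMIs summed over Col1a1, Col1a2, Col3a1, Pdgfra and Mfap4, none of Ptprc, Cdh5 or Epcam, and at most 1 of Cox4i2, Higd1b and Myh11 together. Its adventitial sum, over Pi16, Dcn, Col14a1, Serpinf1 and Clec3b, was at least 2 and no smaller than its alveolar sum, over Npnt, Tcf21, Inmt and Col13a1. The gate took 257 of 14285 kept barcodes in the IgG library and 166 of 12365 in the S100A4-11 library, 423 of 26650 in all. The same rule with the larger alveolar sum gave 568 and 390 alveolar fibroblasts, used as the nearest comparison.

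Each group is a single library, so differences were not tested, no replicate shows the spread of any difference, and antibody and library cannot be told apart. The genes of the rule, and every gene that follows from the choice of these cells, are given as description. Levels are UMIs of a gene per 1000000 UMIs of the members (CPM), and intervals in parentheses are exact 95% counting intervals that cover counting error only. The members held 1525494 and 843906 UMIs in the IgG and S100A4-11 libraries, at medians of 5254 and 3719.5 UMIs and 2237 and 1835.5 genes per cell. The libraries shared 266 barcodes; 10 of the members' barcodes occurred in the other library, and no barcode was a member in both. A doublet caller marked 3 members in each library.

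The cells just inside the gate were few: 20 IgG and 16 S100A4-11 members had an adventitial sum of exactly 2, while 184 and 110 had a sum of 10 or more. Just outside it, 31 and 25 fibroblasts had an adventitial sum of 1 with an alveolar sum of 0 or 1. A further 323 and 240 had an adventitial sum of 2 or more that was below the alveolar sum. Another 57 and 28 barcodes failed only through a Ptprc UMI, and 93 and 47 only through the mural genes.

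The label held for the larger share of the members and not for the rest. Clec3b, which encodes tetranectin, had a UMI in 68.1% of IgG members and 59.6% of those from the S100A4-11 library, and Pi16 (chr17:29317680-29330593, GRCm38, plus strand) in 58.0% and 53.0%. Hhip (chr8:79965851-80058006, minus strand), which encodes a hedgehog-binding membrane protein and was on the list of peribronchial fibroblast markers, was found in 56.4% and 60.8%. Endothelial cells of the same libraries, which should lack these genes, had a Hhip UMI in 0.275% and 0.198% of cells and a Pi16 UMI in 1.41% and 1.15%, at median depths of 3692.5 and 3685 UMIs. Pi16 was also seen in 35.9% of IgG and 31.6% of S100A4-11 immune cells, at a lower level of 147 CPM in the former, so a Pi16 UMI alone does not mark a fibroblast in these lungs.

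Members divided by 2 gene pairs. With 2 or more UMIs of Pi16 and Clec3b together stood 172 IgG members (66.9%) and 98 S100A4-11 members (59.0%). The other 85 and 68 had 0 or 1 such UMI, and of these 83 and 64 held Hhip or Aspn, an extracellular matrix proteoglycan gene that is also on the peribronchial list. Hhip or Aspn was also held by 93 of the 172 and 61 of the 98, so a UMI of either is not particular to the former cells. Dcn and Col14a1 alone supplied the adventitial sum of 79 IgG and 61 S100A4-11 members. These cells entered the gate on matrix genes and not on Pi16, Clec3b or Serpinf1.

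**Figure D1:**
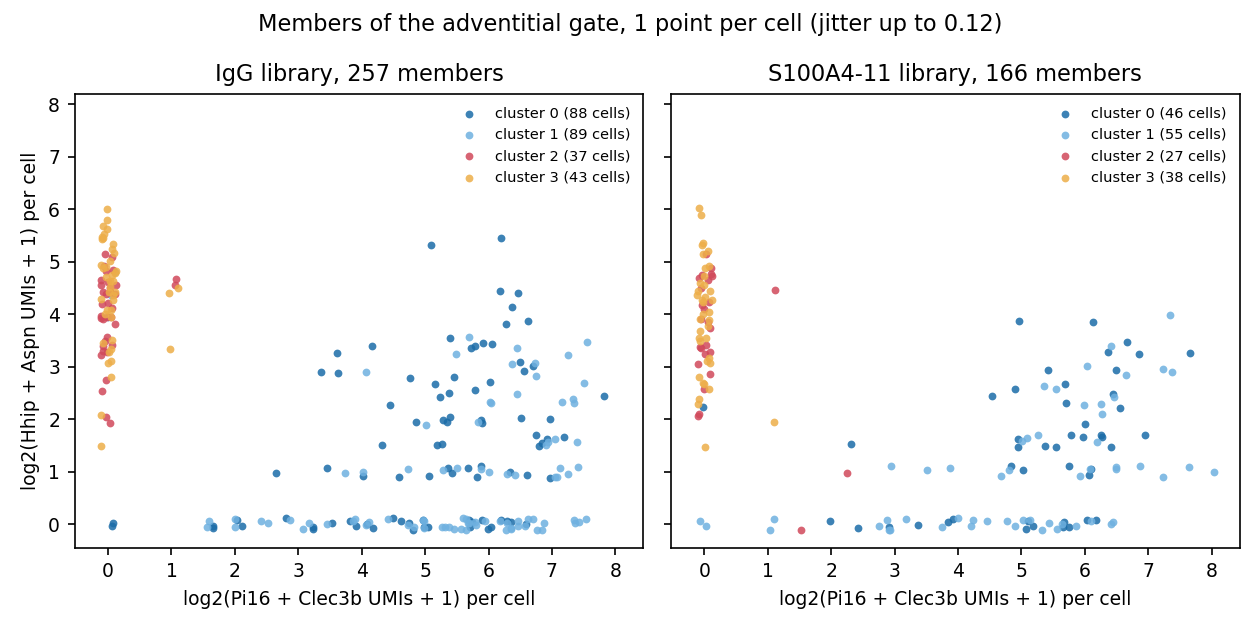
Each point is 1 member; the x axis gives log2(UMIs + 1) of Pi16 and Clec3b summed and the y axis the same of Hhip and Aspn, with a panel for each library and colours for the 4 clusters of the members. Clusters 2 and 3 stand along the left edge, with 0 or few Pi16 and Clec3b UMIs in both libraries, while clusters 0 and 1 spread to the right.

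Clustering the members by their own transcripts (Leiden resolution 0.5) gave 4 clusters, all present in both libraries. These clusters were made from the same cells, so their genes are a description. Cluster 0 held 88 IgG and 46 S100A4-11 cells, cluster 1 held 89 and 55, cluster 2 held 37 and 27, and cluster 3 held 43 and 38. Resolution 0.3 also gave 4 clusters and resolution 1 gave 10. Median depth was 7828, 5862, 3337 and 2893 UMIs in clusters 0 to 3, so the Pi16 and Clec3b clusters 0 and 1 supply most of the UMIs behind any level summed over all members.

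Pi16, Clec3b and Serpinf1 were concentrated in clusters 0 and 1. Pi16 stood at 2317 and 3207 CPM there against 13.2 CPM in cluster 2 and 0 in cluster 3. Clec3b stood at 4361 and 7548 CPM against 26.4 and 16.05 CPM, and Serpinf1, the gene of the secreted anti-angiogenic protein PEDF, at 929 and 1761 CPM against 4.40 and 4.01 CPM. Dcn, which encodes the proteoglycan decorin, was shared more widely, at 3312, 11194, 1404 and 1854 CPM in clusters 0 to 3, and so was Col14a1 at 909, 1228, 422 and 622 CPM. Some genes outside the rule divided in the same way, but Mfap5, on the adventitial marker list, was shared more widely. Mfap5 was at 921, 1390, 295 and 369 CPM in clusters 0 to 3, with a UMI in 53.1% and 49.4% of cells of clusters 2 and 3. Cd34 was at 581 and 845 CPM in clusters 0 and 1 and at 4.40 and 20.1 CPM in clusters 2 and 3, and the basement membrane collagen gene Col15a1 at 285 and 242 CPM against 0 and 4.01 CPM.

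Most alveolar fibroblast markers were also highest in cluster 0, but Fmo2 and Ces1d of the same list were highest in cluster 3. Fmo2 was at 1046, 1048, 1571 and 2315 CPM in clusters 0 to 3, and Ces1d at 37.8, 23.2, 8.80 and 68.2 CPM. Tcf21, a mesenchymal transcription factor gene, was at 534, 315, 17.6 and 8.02 CPM in clusters 0 to 3, and Inmt, which encodes a methyltransferase, at 1707, 1166, 22.004 and 36.1 CPM. Npnt stood at 89.2 CPM and Col13a1 at 63.96 CPM in cluster 0, against at most 24.1 and 12.04 CPM in the others. Itga8, an integrin gene of the same list that the rule did not use, was at 188.01 CPM in cluster 0 against 8.97 CPM in all other members, with a UMI in 58.2% of its cells. The 7 alveolar markers summed to 3665, 2585, 1650 and 2475 CPM in clusters 0 to 3, against 13396 CPM in the alveolar gate of the IgG library. Fmo2 supplied most of the sums in clusters 2 and 3. The 9 adventitial markers summed to 13416 CPM in cluster 0 and 28104 CPM in cluster 1.

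Clusters 0 and 1 differed in their leading genes. None of the adventitial markers was among the 10 genes that led either cluster. Cluster 0 was led by the chemokine gene Cxcl14 (708 CPM, against 24.4 in cluster 1) and the retinol-esterifying enzyme gene Lrat (121 CPM, against 3.74 in all other members). Also among its leading genes were the laminin gene Lamc3 (204 against 8.97 CPM), Itga8 and the water channel gene Aqp1 (837 against 53.1 CPM). Limch1, which was lower in members as a whole than in alveolar cells, followed at 798 against 50.8 CPM. Cluster 1 was led by Sfrp4, a secreted Wnt antagonist, at 113 CPM against 1.33 CPM in other members, and by Ly6c1 (321 against 29.2 CPM) and the ferritin receptor gene Scara5 (287 against 33.8 CPM). The eosinophil-attracting chemokine gene Ccl11 was at 776 CPM in cluster 1 and 205 CPM in cluster 0, the alarmin gene Il33 at 160 CPM in cluster 1 against 26.5 CPM in other members, and the ectonucleotidase gene Entpd2 at 365 and 94.97 CPM. Sftpc, a surfactant gene of alveolar epithelium, also led cluster 1, with 1512 CPM; 1 IgG cell held 84.6% of all Sftpc UMIs of the IgG members.

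Clusters 2 and 3 shared Hhip, at 3054 and 4806 CPM against 366 and 215 CPM in clusters 0 and 1, and Aspn, at 1430 and 2287 CPM against 130 and 128 CPM. Mustn1, a musculoskeletal gene on the peribronchial list, stood at 3265 and 3739 CPM against 55.2 and 125 CPM. The Wnt inhibitor gene Wif1 was at 458 and 746 CPM against 59.1 and 11.6 CPM. Tagln, a contractile gene, was at 1906 and 2086 CPM against 64.9 and 91.7 CPM. The gate's limit on Cox4i2, Higd1b and Myh11 kept out cells rich in mural genes, and Tagln in the mural gate was higher, at 7648 CPM in the IgG library. Cluster 3 was led by the tendon transcription factor gene Scx (124 against 4.24 CPM in other members), Agt, the gene of angiotensinogen (457 against 29.2 CPM), the stem cell receptor gene Lgr6 (221 against 16.04 CPM) and Cyp2e1 (1428 against 98.1 CPM). Cluster 2 shared Lgr6, at 132 CPM, against 0 and 4.65 CPM in clusters 0 and 1.

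Cluster 2 was led by genes of acute activation. They included Rgs16, Csrnp1, Thbs1, the small heat shock gene Hspb1, Myc and Nr4a1. Fos (chr12:85473890-85477273, plus strand), the prototype immediate early gene, was at 12419 CPM in cluster 2 against 2495 CPM in cluster 3. Its UMIs per cell ran from 1 to 140 with a median of 36 in IgG cells of cluster 2 and from 4 to 84 with a median of 35 in S100A4-11 cells. In cluster 3 the medians were 1 and 2.5. Hspa1a, the inducible heat shock protein 70 gene, was at 5338 CPM in cluster 2 and 1007 CPM in cluster 3.

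**Figure D2:**
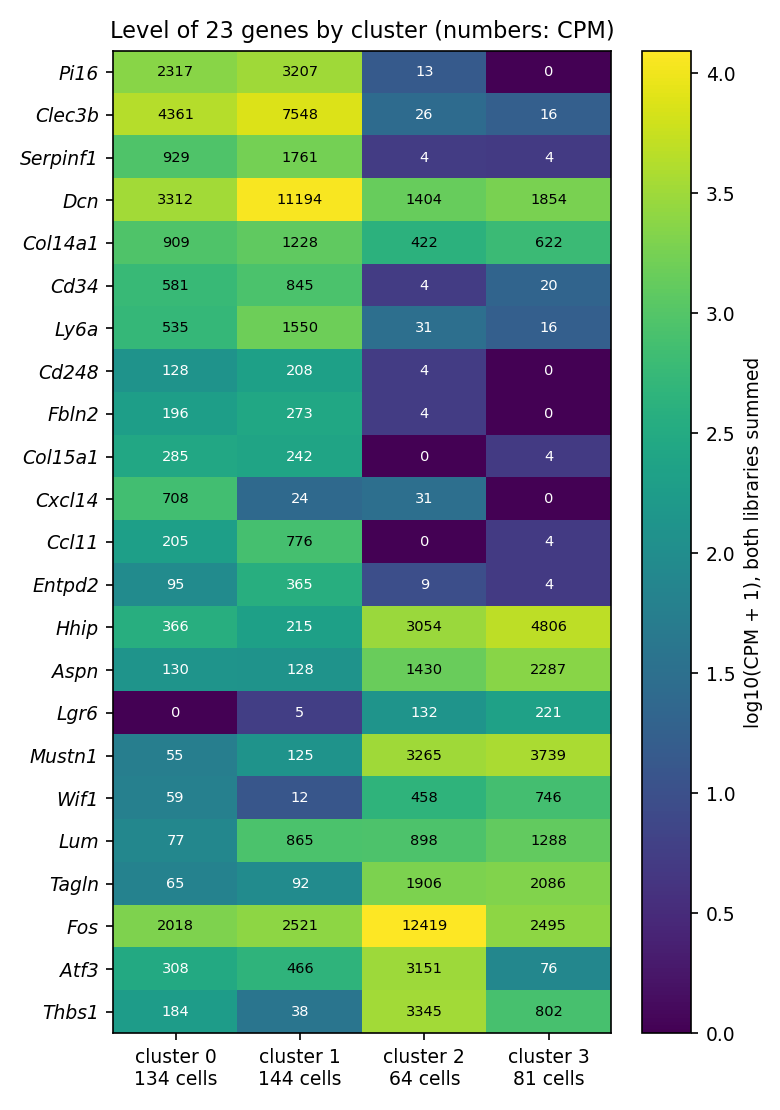
Level of 23 genes in the 4 clusters of members, with both libraries summed; colour is log10(CPM + 1) and the number in each cell is the CPM. Pi16, Clec3b and Serpinf1 are near 0 in clusters 2 and 3, where Hhip, Aspn and Mustn1 are high, while Fos, Atf3 and Thbs1 are highest in cluster 2.

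Markers of other cell types were present at low levels in a sizeable share of the members. Smooth muscle markers reached 2 or more UMIs in 102 IgG members (39.7%) and 67 S100A4-11 members (40.4%). They summed to 842 and 839 CPM, against 20731 and 14578 CPM in the mural gate, and to 244, 147, 2927 and 3803 CPM in clusters 0 to 3. Endothelial markers reached 2 or more UMIs in 85 members (33.1%) and 50 members (30.1%), at 243 and 226 CPM in sum with Cdh5 at 0 by the rule, against 13244 and 13371 CPM in the endothelial gate. Most of that sum was 1 gene, Ramp2, at 163 and 177 CPM. Pericyte markers reached 2 or more UMIs in 63 (24.5%) and 35 (21.1%), and Pdgfrb gave 138 and 132 CPM of their sums of 173 and 180 CPM. Neutrophil markers summed to 165 and 174 CPM, with 55 IgG and 34 S100A4-11 members at 2 or more UMIs, against 65458 CPM in IgG immune cells. Alveolar epithelial markers summed to 1103 and 90.1 CPM, with Epcam at 0 by the rule, and reached 2 or more UMIs in 75 members (29.2%) and 18 members (10.8%). In IgG members the cell richest in each gene held 84.6% of Sftpc, 80.1% of Sftpa1 and 81.25% of Sftpb UMIs, so the IgG sum rests largely on such cells. Airway epithelial markers summed to 117 and 27.3 CPM, with 41 and 5 such members. Sftpc had a UMI in 51.8% of IgG members and 56.4% of IgG endothelial cells, and in 29.5% and 26.6% in the S100A4-11 library, and Scgb1a1 in 39.3% and 41.1% in the IgG library. The part of these markers in the differences between libraries was not tested. Mesothelial markers reached 2 UMIs in 3 and 1 members, and all Msln UMIs came from 1 cell in each library. C1qa, a macrophage gene, had 97.4% of its S100A4-11 UMIs in 1 cell. No member held 2 or more UMIs of the 6 cycling markers, and Cdk1 and Ccnb1 were at 0 in both libraries.

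Members were a smaller share of the S100A4-11 library, and the libraries' median depths of 5254 and 3719.5 UMIs per member differ beside it. They made up 1.80% (1.59 to 2.03) of kept IgG barcodes and 1.34% (1.15 to 1.56) of S100A4-11 barcodes, a fold of 0.746 (0.610 to 0.911). Alveolar fibroblasts were 3.98% and 3.15% (fold 0.793, 0.696 to 0.904) and mural cells 2.63% and 1.64% (fold 0.624, 0.523 to 0.742), while immune cells were 39.7% and 47.3% (fold 1.19, 1.15 to 1.24). Among fibroblasts passing the gate before the 2 sums were compared, members were 27.9% (25.03 to 30.9) of the IgG cells and 26.3% (22.9 to 29.9) of the S100A4-11 cells, which gives a fold of 0.941 (0.770 to 1.15). Measured against other fibroblasts, the share therefore differed by less than its counting error. Clusters 0 and 1 were 1.24% and 0.817% of kept barcodes (fold 0.659, 0.511 to 0.846) and clusters 2 and 3 were 0.560% and 0.526% (fold 0.939, 0.666 to 1.32); the difference between these folds was not tested. Since the gate counts UMIs, depth moves with it: after thinning every barcode to 1000 UMIs before the gate the fold was 0.668 (0.538 to 0.827).

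The next values set the members against the alveolar gate within each library. The rule separated these gates, so the comparison is a description and nothing is read from its counts. Of 9948 genes compared, 505 (5.08%) were at least 2-fold higher in members in both libraries, with both intervals excluding 1, and 730 (7.34%) at least 2-fold lower. These shares of all genes, 5.08% higher and 7.34% lower, stand beside each list count against the alveolar gate below. The rule's own genes were left out of the names below.

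Matrix genes that were nearly absent from the alveolar gate led the higher set. Fbln2 (chr6:91212455-91272540, plus strand), which encodes the elastic fibre protein fibulin 2, was at 184 and 187 CPM in IgG and S100A4-11 members and 1.12 and 0.592 CPM in alveolar cells, ratios of 164 (55.6 to 801) and 316 (56.0 to 12577). Lum (chr10:97565128-97572703, plus strand), which encodes the collagen-binding proteoglycan lumican, was at 553 and 599.6 CPM in members and 4.10 and 1.77 CPM in alveolar cells, ratios of 135 (75.0 to 271) and 338 (115 to 1644). The clusters show that the same rank hides different cells: Fbln2 sat in clusters 0 and 1 (196 and 273 CPM, against 4.40 and 0), whereas Lum was low in cluster 0 (76.6 CPM) and high in clusters 1, 2 and 3 (865, 898 and 1288 CPM). Col15a1 was 110-fold and 190-fold higher than in alveolar cells, and Col1a1, Col1a2 and Col3a1, collagen genes of the rule given as description, were 3.15-fold to 4.22-fold higher.

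The list of fibroblast progenitor genes had 12 of 18 compared genes higher and 1 lower. Cd34 was at 569.7 and 551 CPM against 81.6 and 82.8 CPM in alveolar cells, ratios of 6.98 (6.01 to 8.14) and 6.65 (5.50 to 8.09). Ly6a, the gene of the stem cell antigen Sca-1, was at 848 and 717 CPM against 69.7 and 54.4 CPM, ratios of 12.2 (10.4 to 14.3) and 13.2 (10.6 to 16.6). Cd248, which encodes endosialin, was at 138 and 121 CPM against 1.12 and 1.18 CPM. These 3 genes were high in clusters 0 and 1 alone among the 4 clusters, and the exception of the list, Limch1, was 0.145-fold and 0.141-fold the alveolar level. Dpp4, a progenitor marker in other organs, had only 18 and 3 UMIs in members, at 11.8 and 3.55 CPM.

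Secreted signals differed from those of alveolar cells in both directions. Of 17 chemokine and cytokine genes, 9 were higher, among them Cxcl12, the ligand of Cxcr4, at 314 and 278 CPM against 121 and 95.8 CPM, and Ccl11, 28.8-fold (20.6 to 41.5) and 48.7-fold (27.5 to 95.4) higher. Of 10 insulin-like growth factor genes, 6 were higher and none lower: Igfbp4 was at 2694 and 2689.9 CPM against 235 and 243 CPM, and Igfbp5, whose level was highest in clusters 2 and 3, at 499.5 and 507 CPM against 24.96 and 37.9 CPM. The Wnt antagonists Wif1 and Sfrp1 were 34.0-fold and 9.87-fold higher in IgG and 86.1-fold and 15.4-fold higher in S100A4-11. Among 23 other growth factors and guidance ligands 6 were higher and 9 lower, beside 5.08% and 7.34% of all genes compared. The lower genes included the lymphangiogenic ligand gene Vegfd (108 and 127 CPM against 481 and 461 CPM) and Slit2 (97.0 and 109 CPM against 798 and 480 CPM).

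Alveolar genes beyond the rule marked the lower set. Slc7a10, an amino acid transporter gene, was at 5.24 and 1.18 CPM in members against 309 and 333 CPM in alveolar cells. Nebl was at 43.3 and 28.4 CPM against 1875 and 1228 CPM, and Scube2 and Fgfr4 were 0.0262-fold and 0.0288-fold the alveolar level in IgG. The retinaldehyde dehydrogenase gene Aldh1a1 was at 143 and 66.4 CPM against 1298 and 1138 CPM, and the terminal complement gene C7 at 207 and 132 CPM against 1148 and 899.9 CPM. Pdgfra, the receptor gene used as a general fibroblast marker in the rule, was 0.269-fold and 0.237-fold the alveolar level, as description.

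**Figure D3:**
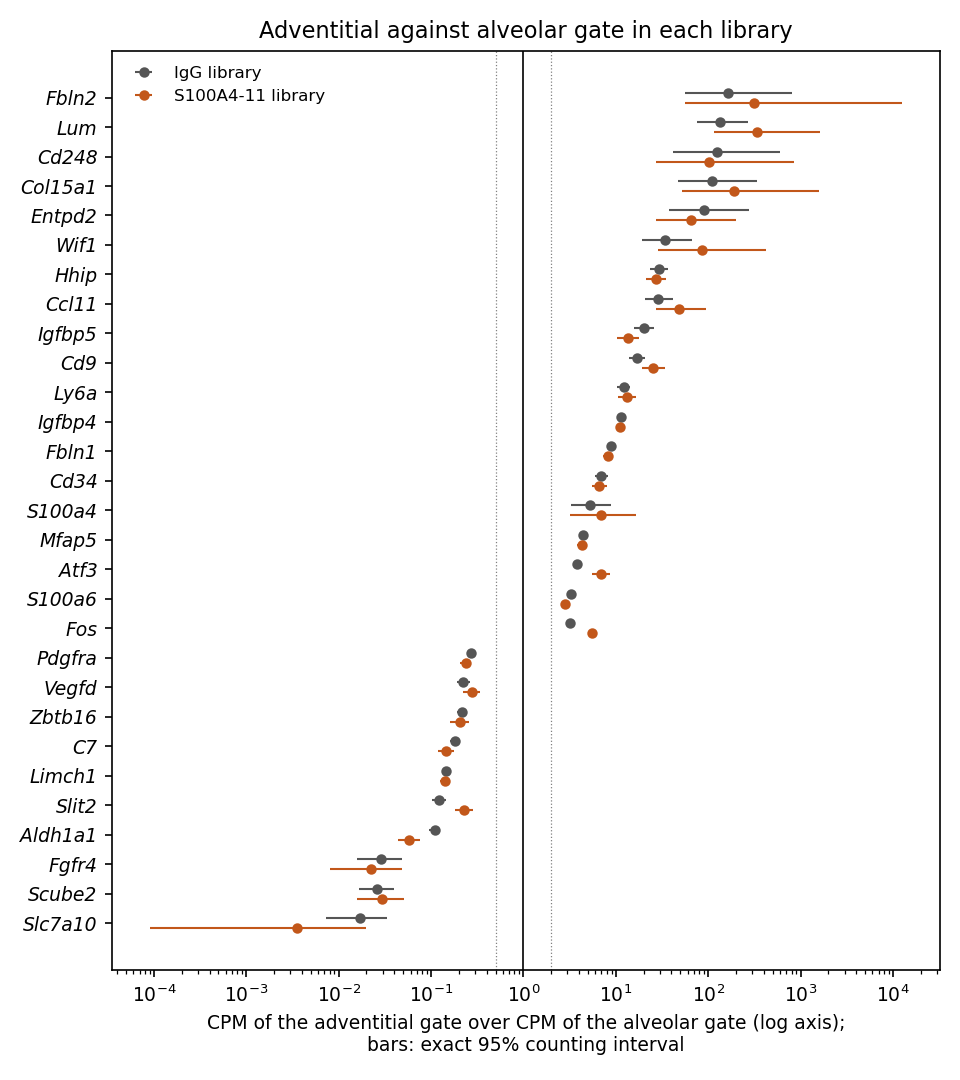
Ratio of the level in the adventitial gate to that in the alveolar gate for 29 genes, on a log axis; points are the ratio in each library, bars the exact 95% counting interval, dotted lines the 2-fold limits. The genes were picked among those past the 2-fold limit in both libraries, so the shared side of 1 follows from the choice. In IgG the ratios run from Fbln2 at 164-fold to Slc7a10 at 0.0170-fold.

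S100a4 (chr3:90603771-90606045, plus strand), the gene the antibody is named for, was a minor transcript of these cells. It was at 45.2 CPM (35.2 to 57.2) in IgG members, from 69 UMIs, and at 36.7 CPM (24.96 to 52.1) in S100A4-11 members, from 31 UMIs, a fold of 0.812 (0.514 to 1.26). The libraries therefore overlapped within counting error. By cluster it was at 15.5, 56.9, 61.6 and 84.3 CPM, and it stood at 8.57 and 5.32 CPM in alveolar cells against 207 CPM in IgG immune cells. Of 18 genes of the S100 family and its partners, 6 were higher in members than in alveolar cells, including S100a6 (2576 and 2237 CPM against 778 and 792), S100a10 (1039 and 965 CPM against 264 and 298) and its partner Anxa2 (690.3 and 645 CPM against 294 and 295). Between the libraries none of 17 measured genes of this list was higher. Ager, also an alveolar epithelial marker, was lower on 19 and 2 UMIs, beside 3.69% of all genes measured. It had a UMI in 12 IgG members (4.67%) and 2 S100A4-11 members, against 6.66% and 3.37% of endothelial cells. A single cell held 36.8% of its IgG UMIs, and the source of these UMIs was not tested.

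Immediate early genes were higher than in alveolar cells in 17 of 27 cases and lower in none. This count is over all members and was not taken by cluster. Cluster 2 was the highest in Fos and Atf3, and in it Nr4a1 stood at 4669 CPM against 390 CPM in other members. Fos was at 3343 and 3079 CPM in members against 1046 and 553 CPM in alveolar cells, and Jun at 1622 and 1242 CPM against 441 and 236 CPM. Atf3 (chr1:191170296-191218039, minus strand), a stress-induced transcription factor gene, was at 714 and 433 CPM against 187 and 62.7 CPM. Of 20 heat shock chaperone genes 3 were higher, Hspa1a, Hspa1b and Hspb8. Interferon response genes were higher in 0 and lower in 0 of 25.

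Several immediate early genes are known targets of the cyclic AMP response element binding factor. The element's full letters, TGACGTCA, read on both strands, were looked for after these results had been seen, in RefSeq windows of 300 bases (250 before to 50 after a gene's start, GRCm38.p6). Of the 30 listed immediate early genes 24 had a window, and 3 of them (12.5%) held the full letters, Btg2, Dusp1 and Maff, against 2.03% of 27025 genes with a window. The 5 letters TGACG, which the full site contains, were in windows of 12 of the 24 genes (50%) and of 23.05% of all genes. Btg2, an anti-proliferative gene, and Maff, a small Maf transcription factor gene, are shown because both were at least 2-fold higher than in alveolar cells in both libraries. Btg2 stood at 959 and 885 CPM and Maff at 142 and 134 CPM in IgG and S100A4-11 members. Sequences run 5′ to 3′ on the gene's strand, with the full site in capitals.
Btg2, chr1:134079106-134079405, minus strand: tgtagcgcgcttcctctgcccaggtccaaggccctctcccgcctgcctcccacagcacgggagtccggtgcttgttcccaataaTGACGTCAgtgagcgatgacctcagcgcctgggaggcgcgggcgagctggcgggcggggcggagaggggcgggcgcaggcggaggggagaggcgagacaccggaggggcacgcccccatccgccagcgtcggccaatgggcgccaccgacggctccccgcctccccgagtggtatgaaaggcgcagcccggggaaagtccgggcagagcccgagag
Maff, chr15:79347270-79347569, plus strand: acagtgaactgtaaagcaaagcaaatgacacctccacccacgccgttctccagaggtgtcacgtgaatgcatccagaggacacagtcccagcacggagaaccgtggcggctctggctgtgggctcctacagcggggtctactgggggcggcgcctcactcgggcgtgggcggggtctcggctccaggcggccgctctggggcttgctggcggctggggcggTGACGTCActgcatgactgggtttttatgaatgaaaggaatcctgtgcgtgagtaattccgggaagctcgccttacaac
The site begins 166 bases before the start of Btg2 and 29 bases before that start of Maff. A match of letters is a description of the window and shows no binding.

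**Figure D4:**
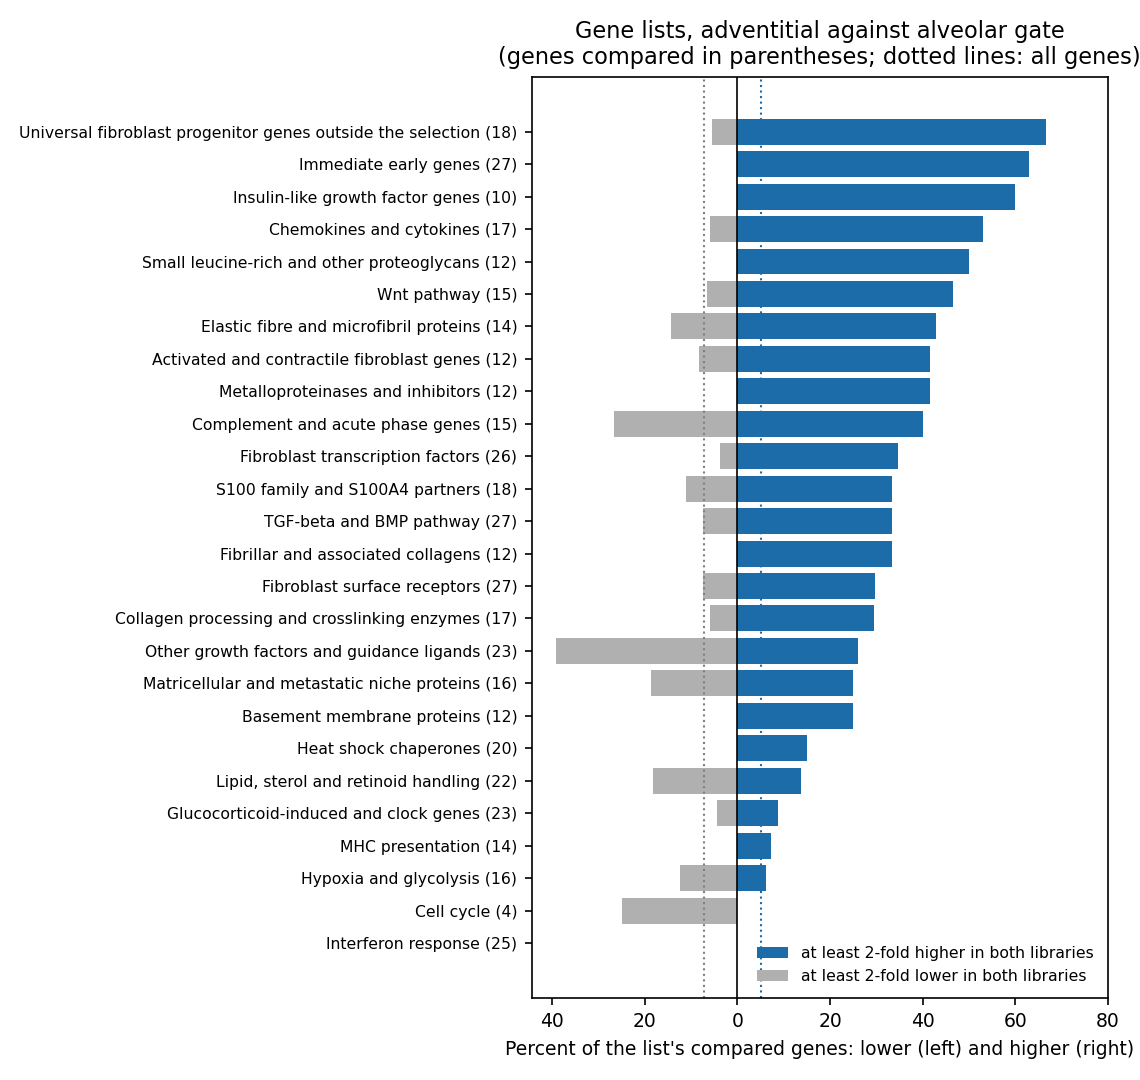
For each of 26 gene lists, bars give the percent of its compared genes that were at least 2-fold higher (right) or lower (left) than in the alveolar gate in both libraries, with the number compared in parentheses; dotted lines mark all genes, 5.08% and 7.34%. Progenitor genes (12 of 18) and immediate early genes (17 of 27) reach farthest right, and interferon genes have none on either side.

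Between the libraries, most genes of the members differed little. Of 9733 genes with at least 20 UMIs, 211 (2.17%) were at least 1.5-fold higher in S100A4-11 members with an interval excluding 1, and 359 (3.69%) were at least 1.5-fold lower. The median log2 ratio over these genes was -0.02. The genes that set the gate, given as description, were close: Pi16 was at 2153 and 2216 CPM, Dcn at 5902 and 5729 CPM, Serpinf1 at 1062 and 1016 CPM, Clec3b at 4834.5 and 4306 CPM and Col14a1 at 1020.0 and 818 CPM. Within clusters 0 and 1, 185 of 9025 genes (2.05%) were higher and 362 (4.01%) lower, and within clusters 2 and 3, 116 of 4101 genes (2.83%) were higher and 152 (3.71%) lower. Cell composition moves with these values: clusters 2 and 3 were 80 of 257 IgG members and 65 of 166 S100A4-11 members, and values within the clusters are given beside several genes.

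Matricellular genes were the list with most genes lower, 4 of 16 and none higher, beside 3.69% and 2.17% of all genes measured. Their median log2 ratio was -0.24. Ccn2 (chr10:24595442-24598683, plus strand), the gene of connective tissue growth factor, was at 539 CPM (503 to 577) in IgG members and 294 CPM (258 to 333) in S100A4-11 members, a fold of 0.545 (0.471 to 0.629). It was lower within clusters 0 and 1 (0.561) and within clusters 2 and 3 (0.524), and stood at 0.853 in alveolar cells. Thbs1, the thrombospondin 1 gene, was at 581 and 352 CPM (fold 0.606, 0.530 to 0.692), with 0.487 in clusters 0 and 1, 0.505 in clusters 2 and 3 and 0.969 in alveolar cells. Ccn3 and Ccn5 had folds of 0.638 (0.406 to 0.978) and 0.566 (0.397 to 0.793). The matrix protein genes Sparc, Sparcl1 and Igfbp7 of the same list were within 1.5-fold, at 0.860, 1.01 and 1.08.

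Of 14 elastic fibre genes 2 were lower, Eln and Ltbp2, and none higher. Over all genes measured 3.69% were lower and 2.17% higher, the shares to set beside each list count of this paragraph. Eln, which encodes elastin, was at 638 and 415 CPM (fold 0.650, 0.574 to 0.735); it was lower in alveolar cells as well (0.542) and not in clusters 2 and 3 (1.08). Ltbp2 was at 59.7 and 20.1 CPM. Of 12 proteoglycan genes 1 was higher and 1 lower. The higher gene was Omd, which encodes osteomodulin, at 7.87 and 20.1 CPM from 12 and 17 UMIs (fold 2.56, 1.15 to 5.88). The lower was Podn, a small proteoglycan gene (chr4:108014791-108096445, minus strand), at 203 and 107 CPM (fold 0.525, 0.410 to 0.666). Podn stood at 0.518 in clusters 0 and 1, 0.975 in clusters 2 and 3, 0.956 in alveolar cells and 1.49 in members with an alveolar sum of 0. Of 12 fibrillar collagen genes 1 was lower, Col12a1, and none higher, and none of 17 collagen-processing enzymes passed the limit either way. Col1a1, Col1a2 and Col3a1, which are in the rule, had folds of 0.915, 0.954 and 0.969.

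Among metalloproteinases and their inhibitors 3 of 13 were lower and none higher, beside 3.69% and 2.17% of all genes measured. Mmp3 (chr9:7445822-7455975, plus strand), the gene of stromelysin 1, showed the largest difference of these: 343 CPM (315 to 374) from 524 UMIs in IgG members and 121 CPM (98.6 to 147) from 102 UMIs in S100A4-11 members, a fold of 0.352 (0.282 to 0.436). Only 18.3% and 10.8% of members had a Mmp3 UMI, and 1 cell held 14.1% and 22.5% of them. The fold was 0.413 (0.330 to 0.514) in clusters 0 and 1, whereas in alveolar cells it was 2.32 (1.85 to 2.91), from 50.3 to 117 CPM. Adamtsl1 and Adamtsl3 had folds of 0.621 and 0.430. Mmp2 and Mmp14 were within 1.5-fold, at 0.999 and 1.13.

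Slit3, a guidance ligand gene, was at 386 and 225 CPM (fold 0.583, 0.493 to 0.688), close to its folds in alveolar (0.610), mural (0.544) and immune cells (0.603). In clusters 2 and 3, where it is low, it was at 21.5 and 76.1 CPM. Of 26 other growth factors and guidance ligands 3 were lower and 1 higher, beside 3.69% and 2.17% of all genes measured. The lower genes besides Slit3 were Vegfc (28.8 and 9.48 CPM) and Angptl4 (54.4 and 31.99 CPM), and Pdgfc was higher on 8 and 13 UMIs. Aldh1a1 was at 143 and 66.4 CPM (fold 0.464, 0.340 to 0.625) and had the same fold, 0.462, in both pairs of clusters. The receptor gene Tgfbr1 was at 59.0 and 26.1 CPM (fold 0.442, 0.264 to 0.711). It was the 1 of 26 genes of the transforming growth factor beta pathway past the limit, near the 3.69% of all genes measured that were lower.

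Zbtb16 (chr9:48654297-48836222, minus strand), a transcription factor gene known to be induced by glucocorticoids, was at 169 CPM (149 to 191) and 90.1 CPM (70.96 to 113), a fold of 0.532 (0.407 to 0.690). Its fold lay between 0.463 and 0.579 in alveolar, mural, endothelial, immune and epithelial cells too. Per3 and Sgk1, of the same list of glucocorticoid-induced and clock genes, had folds of 0.622 and 0.603. Over all members 3 of 23 genes of the list were lower and none higher, beside 3.69% and 2.17% of all genes measured. In clusters 0 and 1 the list had 1 of 22 higher, Mt2, and 6 lower, beside 2.05% and 4.01% of all genes there. In clusters 2 and 3 it had none of 19 higher and 5 lower, beside 2.83% and 3.71% of all genes there. Those lower in clusters 0 and 1 included Tsc22d3 (547 and 286 CPM, fold 0.523, 0.442 to 0.616), which was level in clusters 2 and 3 (0.984). Mt1, a metallothionein gene, went opposite ways: 1.28 in clusters 0 and 1 and 0.313 in clusters 2 and 3.

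Immediate early genes were nearly level over all members, with 1 of 27 higher and 1 lower, beside 2.17% and 3.69% of all genes measured. They differed by cluster. Within clusters 2 and 3, 11 of 27 were lower and none higher, beside 3.71% of all genes there; in alveolar cells 11 of 26 were lower, beside 7.31% of all genes there. Atf3 had a fold of 0.606 (0.537 to 0.683) over all members, 0.569 in clusters 0 and 1, 0.534 in clusters 2 and 3 and 0.335 in alveolar cells. Zfp36, which encodes an RNA-destabilizing protein, was at 5779.8 and 2969 CPM in clusters 2 and 3 (0.514, 0.466 to 0.565) and Egr1 at 5758 and 3517 CPM (0.611, 0.558 to 0.668). Fos was level there, at 7387 and 7003 CPM. Cluster 2, where Fos is highest, was 37 of the 80 IgG and 27 of the 65 S100A4-11 cells of these clusters. None of 20 heat shock genes passed the limit over all members.

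Among genes higher in S100A4-11, Igfbp3 (chr11:7206086-7213923, minus strand), which encodes an insulin-like growth factor carrier, was at 309 CPM (282 to 339) and 487 CPM (441 to 536), a fold of 1.57 (1.38 to 1.80). The difference sat in clusters 2 and 3, at 780.2 and 1456 CPM (1.87, 1.56 to 2.24), and not in clusters 0 and 1 (0.940, 0.752 to 1.17). Ninj1, a membrane rupture protein gene, was at 45.2 and 87.7 CPM (fold 1.94, 1.38 to 2.73) and Gsdmd, which encodes the pore-forming gasdermin D, at 33.4 and 65.2 CPM (1.95, 1.31 to 2.91). Cirbp, a cold-inducible RNA-binding protein gene, was at 74.1 and 127 CPM (1.71, 1.30 to 2.25), and Jarid2, a Polycomb cofactor gene, at 168 and 297 CPM (1.77, 1.48 to 2.12), with 21.9% of its S100A4-11 UMIs in 1 cell. The matrix gene Spon2 was at 85.2 and 142 CPM (1.67, 1.29 to 2.16), but its fold was 0.778 with members thinned to 1000 UMIs. The remaining genes named by rank, Ier5l, Tmem9, Smim27, Rgs7bp, Runx1t1 and AW112010, had folds from 1.74 to 2.18. Rgs7bp did not keep its direction, with folds of 0.709 in clusters 2 and 3 and 0.531 in members with an alveolar sum of 0.

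Of 21 chemokine and cytokine genes, counting Ptgs2, 2 were higher and 1 lower, beside 2.17% and 3.69% of all genes measured. Ccl8 was at 21.6 and 45.03 CPM, but 39.5% of its S100A4-11 UMIs came from 1 cell. Ccl19, a lymphocyte-attracting chemokine gene, was at 16.4 and 33.2 CPM (fold 2.02, 1.14 to 3.62). A single cell supplied 14.3% of its S100A4-11 UMIs. Ptgs2, which encodes the prostaglandin-producing enzyme cyclooxygenase 2, was at 30.8 and 7.11 CPM (0.231, 0.0806 to 0.541), and 1 cell supplied 31.9% of the IgG UMIs. H2-Aa and H2-Ab1, genes of major histocompatibility complex class II, were at 35.4 and 78.2 CPM and 20.98 and 42.7 CPM, with 1 cell holding 37.9% to 50% of the UMIs in each library. Has1, a hyaluronan synthase gene, was at 127 and 216 CPM with 41.8% of S100A4-11 UMIs in 1 cell, and Nr4a3 at 46.5 and 74.7 CPM with 58.7% in 1 cell. In clusters 2 and 3 both went the other way, with folds of 0.822 for Has1 and 0.405 for Nr4a3. Has1 was also at 0.912 after thinning, and Nr4a3 at 0.723 without its richest member. Class I genes were within 1.5-fold, with H2-K1 at 1.10 and H2-D1 at 1.15. None of 25 interferon response genes passed the limit in either direction, with a median log2 ratio of -0.19.

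The remaining lower genes named by rank behaved unlike one another across clusters. Odc1, the rate-limiting enzyme gene of polyamine synthesis, was at 118 and 46.2 CPM (fold 0.392, 0.270 to 0.556), from a fold of 0.0915 (0.0386 to 0.186) in clusters 2 and 3, at 444 and 40.6 CPM, and of 1.07 (0.665 to 1.68) in clusters 0 and 1. Aqp1 was at 462 and 273 CPM (0.590, 0.506 to 0.685), with no UMI in clusters 2 and 3. Faf1 (0.384), Ccnt1 (0.402), Zfpm2 (0.538) and 4930402H24Rik (0.417) were also lower; Faf1 was level in clusters 2 and 3, at 0.982.

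**Figure D5:**
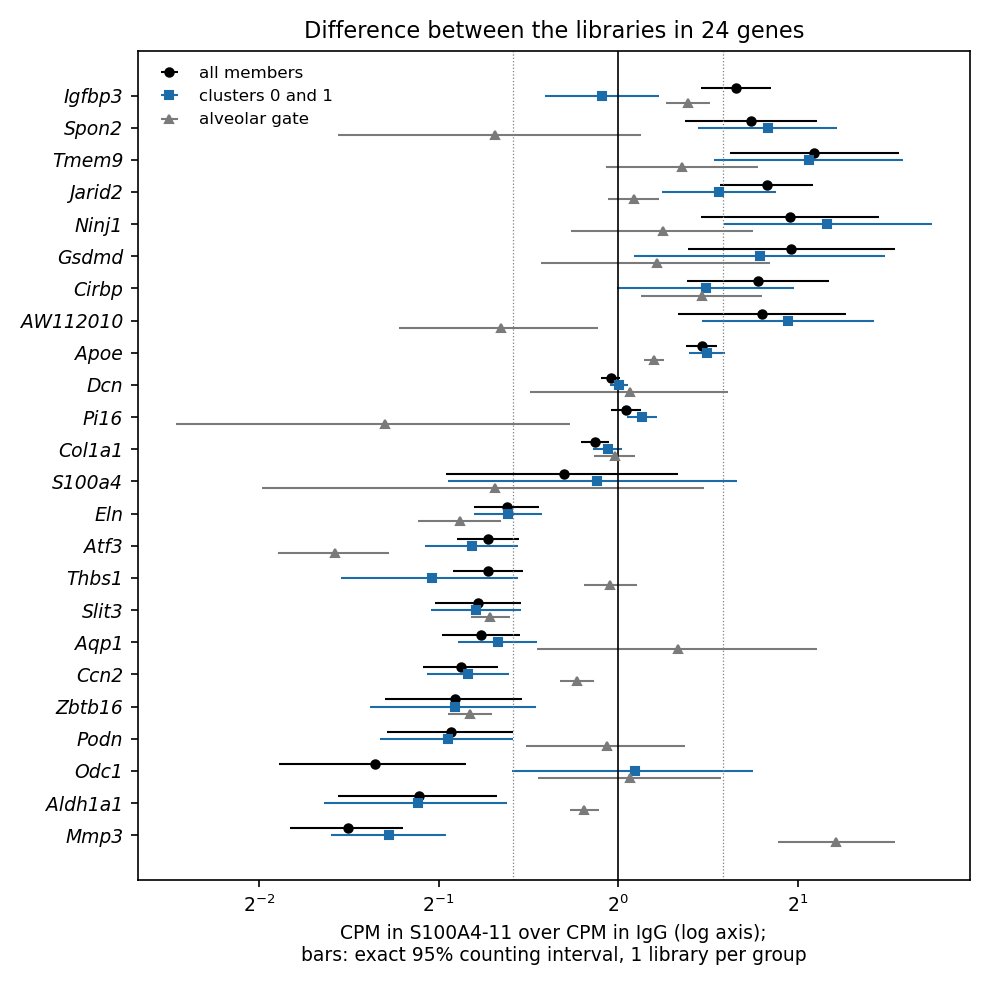
Ratio of S100A4-11 to IgG level for 24 genes on a log axis, over all members, in clusters 0 and 1 and in the alveolar gate; bars are exact 95% counting intervals with 1 library per group and dotted lines the 1.5-fold limits. Mmp3 is lower in members (0.352) and higher in the alveolar gate (2.32), Igfbp3 is not higher in clusters 0 and 1 (0.940), and Zbtb16 and Slit3 are lower in all 3.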

How the data were processed

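The deposited matrices hold whole UMI counts per gene and barcode, per the file headers, for 2 lung libraries. Per the labels' protocols, cells went through the version 2 kit of the 10x Genomics 5' assay and a DNBseq sequencer; the protocol text speaks of tumour, while the titles and tissue labels say lung. Per the submitters' processing notes, Cell Ranger 7.1.0 and build mm10 were used. The matrices held 14411 and 12506 barcodes with 85458143 and 64695542 UMIs over 32286 features.

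Members were found by the rule given with the results; barcodes called as doublets (Scrublet in Scanpy 1.11.5; 627 and 615) were kept and their removal tried. UMIs were summed over members per library. A gene was measured at 20 or more UMIs over both libraries and counted as higher or lower at 1.5-fold with an exact conditional binomial interval excluding 1; against alveolar cells, at 2-fold in both libraries. List medians use log2 ratios of CPM with a pseudocount of 0.5 UMIs. Members were clustered on 1000 variable genes, 15 principal components and 15 neighbours (igraph 0.11.9). No correction was made for free RNA. The code was tested on simulated data. Gene positions are from GENCODE annotation of GRCm38.

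Named genes had at least 50 UMIs and 50 CPM in 1 library, at least 20% of the highest level of any gated class and no cell with over 25% of their UMIs; the 12 highest and 12 lowest by the interval bound nearest 1 were taken. From each list the genes past the limit and up to 6 with the highest level were added, with S100a4, rule genes and markers, and against alveolar cells 15 higher and 8 lower. Members, markers, lists and alternatives were chosen with earlier results of these data known. Restricting values to cluster pairs, and the search for promoter letters, were chosen after seeing the data. TMM factors came from edgeR 4.0.16 in R 4.3.3 and served for scaling alone. Neither a test nor a p-value was made, since each group had 1 library.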

Additional observations from a re-analysis of the deposited data

Results flagged for a closer look

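For 3 genes the members and the alveolar gate lay past the 1.5-fold limit in opposite directions between the libraries, with both intervals excluding 1. The differences between the gates were not tested, and genes with over 25% of their UMIs in 1 cell were not considered. Mmp3 had a fold of 0.352 in members and 2.32 (1.85 to 2.91) in alveolar cells. Lpl, the gene of lipoprotein lipase, had a fold of 1.51 (1.06 to 2.15) in members, from 47.9 to 72.3 CPM, and of 0.614 (0.386 to 0.954) in alveolar cells, from 27.9 to 17.2 CPM. AW112010 had a fold of 1.74 (1.26 to 2.41) in members and 0.635 (0.429 to 0.925) in alveolar cells; a UMI of it was seen in 21.4% of members in IgG and in 18.1% in S100A4-11.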

How the results depend on the processing

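No paired analysis was possible because each group had 1 library, and no library could be left out. Over all settings, 60 values of the members' share and of the counts of genes stayed within the counting interval or within 1.5 times, and 14 did not. The fold of the members' share, 0.746, was 0.918 with an alveolar sum of 0 and 0.939 in clusters 2 and 3, both with intervals that include 1; without members holding 2 or more UMIs of immune markers it was 0.852 (0.668 to 1.08). Genes higher between libraries (211) numbered 116 in clusters 2 and 3, 373 with every member weighing the same, 140 without the member richest in each gene, 89 with members thinned to 1000 UMIs and 54 at 100 or more UMIs. Genes lower (359) numbered 211 with an alveolar sum of 0, 152 in clusters 2 and 3, 714 with equal weights, 124 after thinning and 145 at 100 or more UMIs. Thinning left 206 higher and 465 lower of the 505 and 730 genes against alveolar cells. Fewer cells or UMIs enter most of these settings. The genes called were often not the same ones. Of the main higher calls still measured, 14 of 49 were kept after thinning, 24 of 70 with an alveolar sum of 0 and 21 of 63 in clusters 2 and 3. For the lower calls these were 35 of 109, 61 of 149 and 39 of 129. Equal weights kept 138 of 211 higher and 266 of 359 lower calls, and TMM factors kept 211 and 357.

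Of 255 named genes followed over the settings, 12 changed direction in at least 1 setting. Among them were genes ranked for their difference between the libraries, such as Igfbp3, Spon2, Rgs7bp and Odc1. With an alveolar sum of 0, Podn was at 1.49, Ugdh at 1.18, Rgs7bp at 0.531 and Col4a5 at 1.28. In clusters 2 and 3, Nr4a3 was at 0.405, Ugdh at 1.01, Eln at 1.08, Slit3 at 3.54, Rgs7bp at 0.709, Has1 at 0.822 and Col4a5 at 1.23. In clusters 0 and 1, Igfbp3 was at 0.940 and Odc1 at 1.07. After thinning, Spon2 was at 0.778 and Has1 at 0.912. Nr4a3 was at 0.690 without members with immune markers, 0.900 with equal weights and 0.723 without its richest member. Lyz2, a macrophage gene with 79.6% of its IgG UMIs in 1 cell, had folds of 3.65 without doublets, 3.07 without members with mesothelial markers and 1.26 without members with immune markers. Median-of-ratios scaling moved the log2 ratios by 0.03, the largest shift of the scalings tried. Depth limits low genes: the smaller group held 843906 UMIs, and genes near the minimum of 20 UMIs have wide intervals. The causes of these changes were not tested.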

Other observations

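Genes of the peribronchial list outside Hhip and Aspn were present in the members in both libraries: Mustn1 in 48.2% of IgG and 47.6% of S100A4-11 members, Lgr6 in 15.95% and 10.2%, Pdlim3 in 20.6% and 12.05% and Fgf18 in 7.78% and 6.02%. Their list summed to 2262 and 2646 CPM in members, 197 and 171 CPM in alveolar cells and 4543 and 5218 CPM in mural cells. Apoe, a lipid carrier gene, was at 1571 and 2166 CPM in members (fold 1.38, 1.30 to 1.47), under the 1.5-fold limit with a narrow interval, and at 1.41 in clusters 0 and 1, 1.27 in clusters 2 and 3 and 1.15 in alveolar cells.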
